A study of Mus musculus with 8 samples.

Results

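Ba/F3 cells carrying wild type FLT3 were compared after 4 h with 100 ng/ml Cxcl12 and after 4 h without it, on 2 arrays a side. These 4 arrays were chosen by their labels, as wild type FLT3 with Cxcl12 and wild type FLT3 alone, out of 8 arrays in the series. The other 4 arrays are of Ba/F3 cells with FLT3/ITD, a receptor with an internal tandem duplication, again with and without Cxcl12. Those labelled N51 lay on slide 1 and those labelled N78 on slide 2. All cells came from one mouse pro-B line that was kept in medium with serum and IL3, then washed and held in plain medium with albumin, so the wild type FLT3 cells without Cxcl12 had the same change of medium as those with it. Each of 2 slides held 1 array of every group, and each group lay at the same place on both slides, so place on the slide and treatment cannot be told apart. The labels do not say whether the 2 wild type arrays of a group came from separate cultures or how FLT3 was introduced. The p-values come from a fit of all 8 arrays and therefore measure the spread between these arrays. Between the wild type arrays of a group that spread may be technical. The FLT3/ITD arrays of a group are N51 and N78, so their spread also holds any difference between these 2 labels.

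Cxcl12 is a chemokine that binds the receptor Cxcr4 and the scavenging receptor Ackr3. Cxcr4 couples to inhibitory G proteins, whose beta and gamma subunits and downstream kinases raise phosphoinositide 3-kinase, MAP kinase and small GTPase activity. Actin filaments are then rebuilt and the cell moves towards the source. In blood-forming tissue this pair is best known for holding stem cells and B cell precursors in the marrow.

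Levels below are log2 intensities of 1 probe per gene minus the 75th percentile of the same array, and differences are levels with Cxcl12 minus levels without. On the 4 wild type arrays 50.4% to 55% of probes were well above background. Across 13865 features (11997 named genes and 1868 probes without a gene name) the arrays with and without Cxcl12 correlated at 0.99 on slide 1 and 0.981 on slide 2, while the differences on slide 1 and slide 2 correlated at 0.318 across features, which are not independent replicates. Cxcr4, measured above background on all 4 arrays, had 3.15 and 2.31 with Cxcl12, against 3.51 and 2.75 without, on slides 1 and 2. Its difference was -0.40 (SE 0.40, limma adjusted p = 0.922). No array measured Ackr3 or Cxcl12 above background, and the mouse Flt3 probe, above it on slide 2 alone, was not tested. Of 19 pro-B cell markers on the array 9 were well above background on all 4 wild type arrays, among them Cd79a, Cd79b and Ptprc. Another 9 were above it on none, among them Pax5, Ebf1, Rag1, Rag2 and Igll1.

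The clearest differences with Cxcl12 included a higher level of the cardiac actin gene Actc1 and lower levels of the glucose transporter gene Slc2a3, the hypoxia gene Fam162a, both selenium-binding protein genes, the corepressor gene Rcor2, Gipr and 5830408C22Rik. In all 9 of 13865 features passed the test (0.0649%), 1 higher (0.00721%) and 8 lower (0.0577%), each at limma adjusted p = 0.0423. At an unadjusted p under 0.05 there were 991 (7.15%). A change of at least 2-fold on both slides was seen in 45 features that were higher (0.325%) and in 129 that were lower (0.93%). Because these are whole cultures, fewer cells with an mRNA and less of it per cell cannot be told apart. The 9 calls lay just inside the threshold. With the 4 wild type arrays alone 349 features passed, in a fit that leaves only 1 residual degree of freedom per feature for the spread. Without the slide term, with quantile normalization or without the intensity trend 0 passed. Without the filter on dim probes or with the mean of a gene's probes 0 passed as well. With wild type FLT3 with Cxcl12 replicate 1 left out 3 features passed, 1 of the 9 (Gipr) among them, and with its replicate 2 left out 0 passed. With wild type FLT3 replicate 1 left out 2 passed, 0 of the 9 among them, and with its replicate 2 left out 0 passed.

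**Figure D1:**
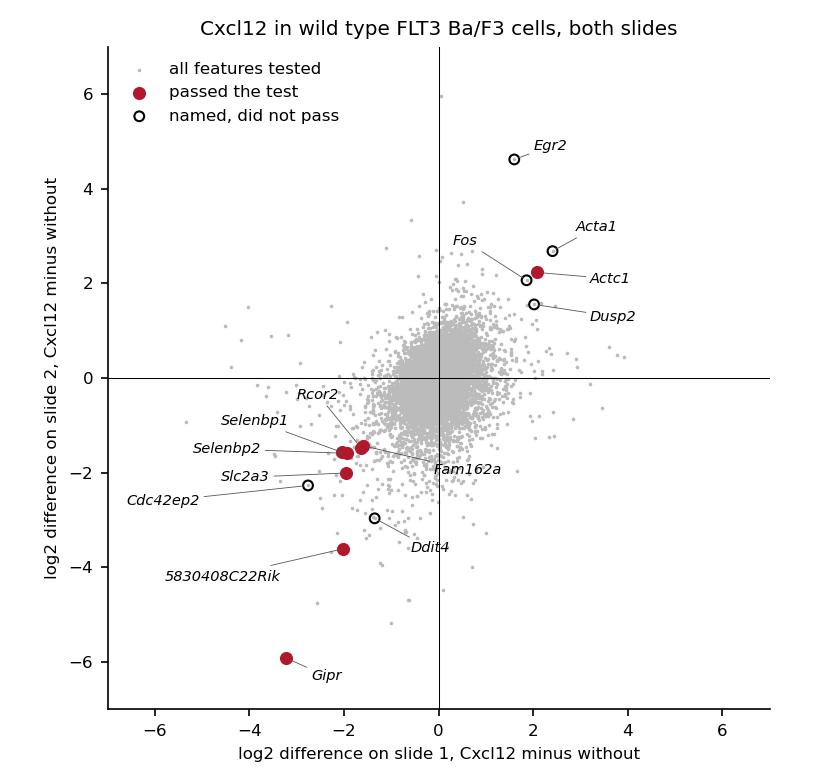
Log2 difference with Cxcl12 minus without on slide 1 (x axis) and on slide 2 (y axis) for 13865 features in wild type FLT3 cells. Grey points are all features, red points are 8 of the 9 that passed the test, 1 at the upper right and 7 at the lower left, and open circles are named genes that did not pass.

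**Figure D2:**
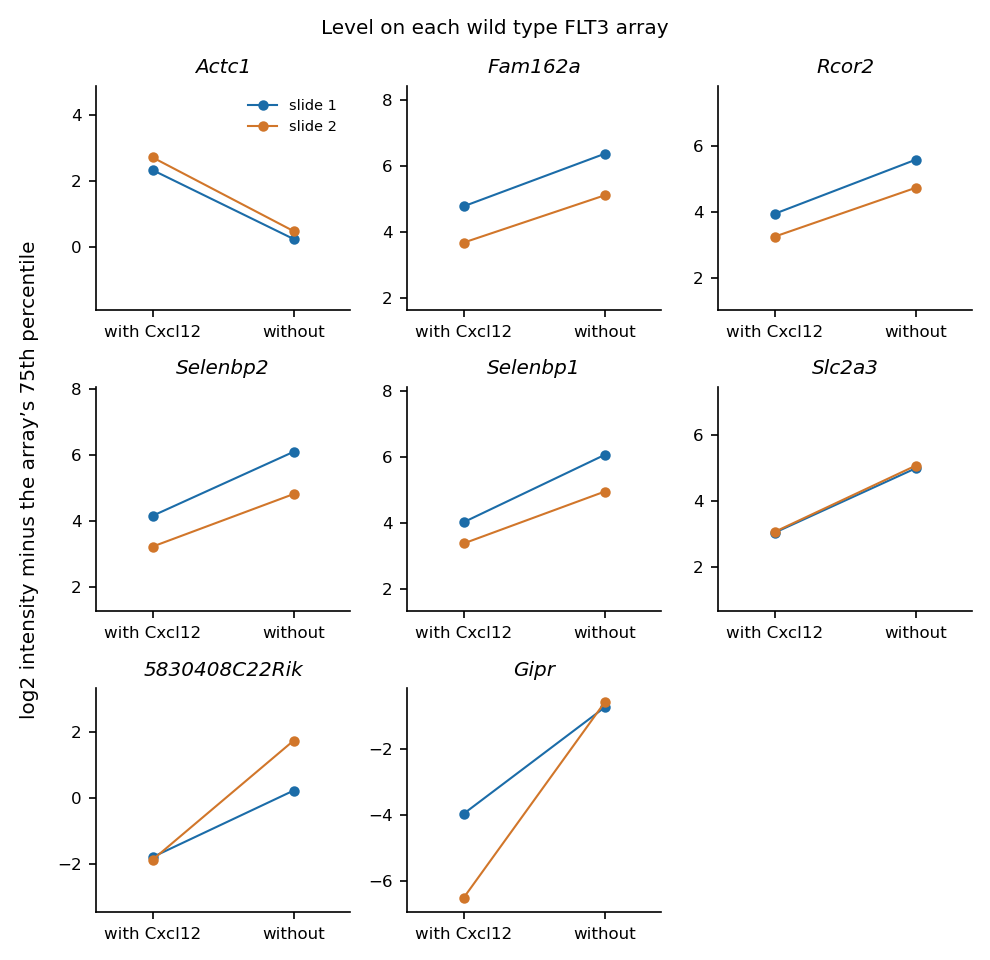
Level of 8 of the 9 genes that passed (y axis, log2 intensity minus the 75th percentile of the array, each panel spanning the same range) with Cxcl12 at the left and without at the right. Lines join the 2 arrays of a slide, and of these 8 only Actc1 was higher with Cxcl12.

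Actc1, which encodes cardiac alpha actin, had 2.34 and 2.73 with Cxcl12 on slides 1 and 2, against 0.25 and 0.49 without. Both arrays with Cxcl12 lay above both without. It rose by 2.16 (SE 0.22, limma adjusted p = 0.0423), a 4.47-fold change, with differences of 2.09 and 2.23 on slides 1 and 2. Its probe lies on chromosome 2 from 113874011 to 113874934 (mm9). Acta1, skeletal alpha actin, had 0.55 and 0.93 with Cxcl12, against -1.86 and -1.75 without. That is a larger difference, 2.55, but its SE of 0.43 was also larger and it did not pass (limma adjusted p = 0.136). Acta2, the smooth muscle alpha actin, had 3.99 and 4.98 with Cxcl12, against 2.39 and 3.63 without (difference 1.47, adjusted p = 0.135). Another 2 Acta2 probes above background on all 8 arrays differed more. One had 5.51 and 5.84 with Cxcl12, against 3.33 and 3.34 without (difference 2.34), and the other had 2.03 and 1.27 with Cxcl12, against -0.93 and -2.66 without (difference 3.45). The probe used was the brightest over all 8 arrays. Actg2, the smooth muscle gamma actin, had 2.33 and 3.78 with Cxcl12, against 0.84 and 2.44 without (difference 1.41, adjusted p = 0.153). The sides did not overlap for any of these 3 Acta2 probes and did for Actg2, whose slides differed by as much as the treatment, and each slide had the higher value with Cxcl12 for both genes. The cytoplasmic actin genes did not go together. Actg1 had 6.73 and 7.74 with Cxcl12, against 5.83 and 6.43 without (difference 1.11, adjusted p = 0.197). Actb had 0.49 and 2.91 with Cxcl12, against 0.58 and 3.41 without (difference -0.30, adjusted p = 0.946). Among the 60-base probes of these 6 actin genes the longest shared run was 8 bases, and the best ungapped match of any pair was 27 bases.

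Actin monomers hold back the coactivator Mrtfa of serum response factor (SRF), and using them up in filaments releases it, so SRF switches on actin and cytoskeleton genes through a sequence named the CArG box. The 250 bases before the RefSeq start of Actc1 (chr2:114052876-114053125, minus strand, GRCm38.p6) and of Acta1 (chr8:123894776-123895025, minus strand) are shown because these 2 actin genes had the largest positive differences of the list, by the 1 probe used per gene, and each holds 1 CArG box, in capitals, starting 47 and 73 bases before the start.
Actc1: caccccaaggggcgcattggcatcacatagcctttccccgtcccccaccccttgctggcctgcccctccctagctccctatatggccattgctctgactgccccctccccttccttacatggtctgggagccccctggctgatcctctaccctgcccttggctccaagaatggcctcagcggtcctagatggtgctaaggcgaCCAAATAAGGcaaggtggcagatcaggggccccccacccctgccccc
Acta1: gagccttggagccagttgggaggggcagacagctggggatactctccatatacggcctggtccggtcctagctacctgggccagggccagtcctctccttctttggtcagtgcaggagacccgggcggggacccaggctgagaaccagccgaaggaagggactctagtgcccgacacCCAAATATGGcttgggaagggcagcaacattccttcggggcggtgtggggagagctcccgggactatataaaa
Searched on both strands, the CArG box was in such a stretch of 6 of the 18 tested list genes with an entry, and of 439 of 27025 genes with an entry (1.62%). Selenbp1, which fell, also held 1. The list was drawn up as actin and SRF-linked genes, so the share with a CArG box describes the list and not the response to Cxcl12. A match in letters does not show that SRF binds there.

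Of 22 measured actin and SRF-linked cytoskeleton genes 1 rose, 0 fell and 21 did not pass. Their median difference was 0.63 (0.52 on slide 1, 0.65 on slide 2), against -0.016 over all features, and was -0.10 with normexp background correction as first planned, in which 4 spots distorted 1 array, and 0.60 with those spots left out. The difference was positive for 18 of 22, against 47.9% of all features, and 17 were higher on both slides, against 27.7%. Below the actins, the tropomyosin gene Tpm4 had 0.79, the actin crosslinkers Actn1 and Flna had 0.77 and 0.65, and the focal adhesion gene Zyx had 0.70 (0.22 on slide 1, 1.18 on slide 2). Srf itself had 0.64, but with 0.098 on slide 1 and 1.19 on slide 2. The lowest member was Tagln, an actin-binding protein of smooth muscle, at -0.70. The SRF targets Ccn1, Ccn2 and Cnn1 were above background on none of the 4 arrays.

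**Figure D3:**
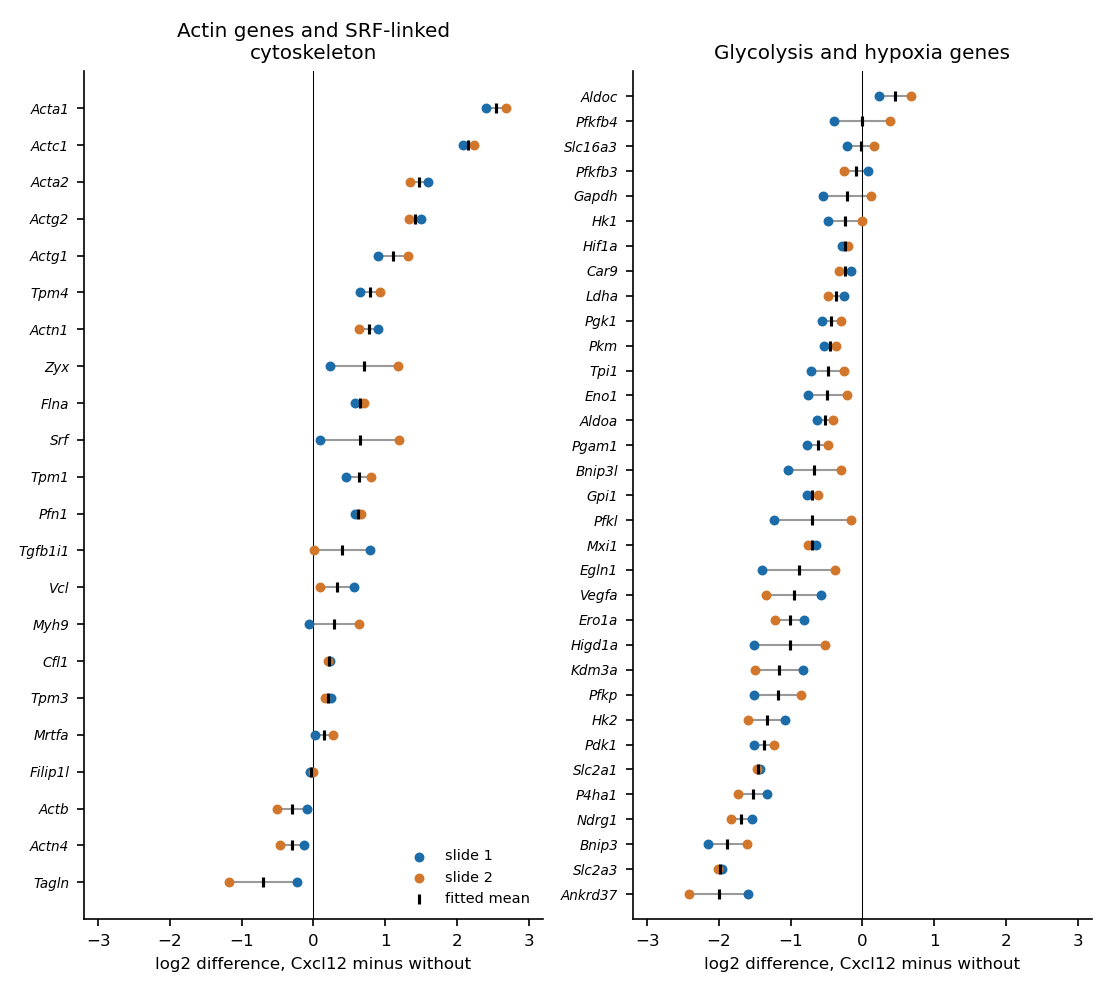
Log2 difference with Cxcl12 minus without (x axis) of each measured member of 2 gene lists in wild type FLT3 cells, with slide 1 in blue, slide 2 in orange and the fitted mean as a black tick. On the left 18 of 22 actin and SRF-linked genes lie above 0, and on the right 32 of 33 glycolysis and hypoxia genes lie below 0.

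Glycolysis and hypoxia genes had the most uniform direction. Hypoxia-inducible factor (HIF), a transcription factor that is destroyed when oxygen is ample and also follows growth factor signalling, switches on glucose uptake, glycolysis and several mitochondrial genes through a short sequence core. Slc2a3, which encodes the glucose transporter GLUT3, had 3.05 and 3.07 with Cxcl12, against 5.0 and 5.08 without. Both arrays with Cxcl12 lay below both without, and the slides differed little. It fell by 1.98 (SE 0.23, limma adjusted p = 0.0423), a 3.94-fold change, with its probe on chromosome 6 from 122678075 to 122678134 (mm9). A second Slc2a3 probe, above background on 3 of the 4 arrays, had -5.26 and -2.11 with Cxcl12, against -4.36 and -0.27 without. Fam162a, a mitochondrial gene known as a HIF target, had 4.78 and 3.68 with Cxcl12, against 6.37 and 5.11 without. It fell by 1.51 (SE 0.19, adjusted p = 0.0423), a 2.85-fold change, with -1.59 on slide 1 and -1.43 on slide 2 (probe on chromosome 16 from 36044032 to 36044091, mm9). The ranges of the 2 sides did not overlap. Its second probe had -4.23 and -3.49 with Cxcl12, against -2.98 and 0.36 without.

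Of 33 measured members of this list 1 fell, Slc2a3, 0 rose and 32 did not pass, with 21 of 33 at an unadjusted p under 0.05, against 7.15% of all features. The median difference was -0.70 (-0.77 on slide 1, -0.48 on slide 2). The difference was negative for 32 of 33, against 52.1% of all features, and 28 were lower on both slides, against 31.6%. Ankrd37, an ankyrin-repeat gene induced in hypoxia, had 3.38 and 2.20 with Cxcl12, against 4.97 and 4.61 without (difference -2.01, SE 0.30, adjusted p = 0.1). Bnip3, which marks mitochondria for removal, had 5.16 and 4.12 with Cxcl12, against 7.31 and 5.73 without (difference -1.88, adjusted p = 0.364). Ndrg1, a stress gene, had 3.55 and 0.54 with Cxcl12, against 5.09 and 2.37 without (difference -1.69, adjusted p = 0.136). Slc2a1, which encodes the other main glucose transporter of blood cells, GLUT1, had 4.37 and 3.15 with Cxcl12, against 5.80 and 4.62 without (difference -1.45, SE 0.21, adjusted p = 0.0876). Hk2, the hexokinase that traps glucose in the cell, had a difference of -1.33, with -1.08 on slide 1 and -1.59 on slide 2. Another hexokinase gene, Hk1, had -0.24. Of the enzymes that follow in the pathway, Pgam1 had -0.62, Eno1 -0.49, Pgk1 -0.44 and Gapdh -0.21. The aldolase gene Aldoc, at 0.45, had the only positive difference. Hif1a had -0.24.

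The 250 bases before the starts of Fam162a (chr16:36071562-36071811, minus strand) and Ankrd37 (chr8:45999851-46000100, minus strand) are shown, since both are hypoxia genes with large negative differences and hold 6 and 4 copies of the HIF core, ACGTG or GCGTG on either strand, in capitals. No CACGTG is in either stretch.
Fam162a: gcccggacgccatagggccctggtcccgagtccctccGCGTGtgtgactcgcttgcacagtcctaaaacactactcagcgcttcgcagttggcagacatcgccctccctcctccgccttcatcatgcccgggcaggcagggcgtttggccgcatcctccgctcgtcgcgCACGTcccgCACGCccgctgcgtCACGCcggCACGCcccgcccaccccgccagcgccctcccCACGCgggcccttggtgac
Ankrd37: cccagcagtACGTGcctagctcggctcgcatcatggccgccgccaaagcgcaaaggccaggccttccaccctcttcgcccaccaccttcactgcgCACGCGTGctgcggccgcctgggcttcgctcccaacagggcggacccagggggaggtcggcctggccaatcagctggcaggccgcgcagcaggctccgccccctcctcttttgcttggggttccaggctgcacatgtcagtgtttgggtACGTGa
The list was drawn up as glycolysis and hypoxia genes, so the share with the core describes the list and not the response to Cxcl12. The core was in 28 of the 30 tested list genes with an entry (93.3%), against 11226 of 27025 genes (41.5%). It was also in 61.1% of the actin list and 61.9% of the cholesterol list. It is a short sequence and common in promoters rich in G and C. Part of its matches are the E-box CACGTG, a site of Myc, which 4 of the 30 list genes held (13.3%), against 6.86% of all genes. Slc2a3 had no entry. Of the 9 genes that passed, 5 had one.

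The other genes that fell have no single role. Selenbp1 and Selenbp2 encode selenium-binding proteins that are close copies of each other. Selenbp1 had 4.02 and 3.37 with Cxcl12, against 6.06 and 4.95 without, and fell by 1.81 (SE 0.23). Selenbp2 had 4.16 and 3.23 with Cxcl12, against 6.10 and 4.82 without, and fell by 1.77 (SE 0.21). Their 60-base probes match at 51 bases with a shared run of 29, so the 2 signals may hold the same mRNA and count as uncertain between the genes. Rcor2, a corepressor that works with the histone demethylase LSD1, had 3.95 and 3.26 with Cxcl12, against 5.59 and 4.74 without. It fell by 1.56 (SE 0.20), with -1.64 on slide 1 and -1.48 on slide 2. In these 3 genes both arrays with Cxcl12 lay below both without. The probes lie on chromosome 3 from 94748620 to 94748679 for Selenbp1 and from 94508262 to 94508321 for Selenbp2, and on chromosome 19 from 7349618 to 7349677 for Rcor2 (mm9).

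Dimmer probes gave the largest decreases. Gipr, the receptor for the gut hormone GIP, had -3.95 and -6.5 with Cxcl12, against -0.73 and -0.58 without. It fell by 4.57 (SE 0.57), with -3.22 on slide 1 and -5.92 on slide 2, but only 1 of the 2 arrays with Cxcl12 was well above background, and with the normexp correction without those 4 spots the difference was -2.40. A second Gipr probe, above background on 2 of the 4 arrays, had -2.37. The gene 5830408C22Rik, for which no role is given here, had -1.80 and -1.88 with Cxcl12, against 0.21 and 1.72 without, and fell by 2.81 (SE 0.35). Its probe was above background on all 4 arrays. The probes lie on chromosome 7 from 19742486 to 19742545 for Gipr and on chromosome 8 from 26219916 to 26219975 for 5830408C22Rik (mm9).

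Several genes differed by at least 2-fold in the same direction on both slides without passing the test. Among the lower ones, Cdc42ep2, an effector of the GTPase Cdc42 that shapes actin, had -1.13 and -0.32 with Cxcl12, against 1.63 and 1.95 without (difference -2.52, SE 0.37, limma adjusted p = 0.0945). Fxyd4, a regulator of the sodium pump, had a difference of -3.67 (adjusted p = 0.136) and Myl10, a myosin light chain, of -2.98 (adjusted p = 0.147), each with 1 of 2 arrays with Cxcl12 above background. Where no array of a side was well above background, the fold is a bound, set against the lowest signal above background on the same arrays. By that bound Cntnap2 was at least 1.05-fold (limma adjusted p = 0.337), Dhrs7c at least 1.32-fold (adjusted p = 0.238) and 1700128A07Rik at least 1.46-fold lower (adjusted p = 0.220). These 3 were above background on the 2 wild type arrays without Cxcl12 and on no other array. They therefore entered the test through that group alone and their direction was fixed by the filter. Myl10 also entered the test through that group alone, since no other group had both its arrays above background. The filter therefore favoured its direction as well. Among the higher ones, Polr3d, a subunit of RNA polymerase III, had a difference of 1.46 (adjusted p = 0.220). The phosphate transporter gene Slc20a1 had 1.15 (adjusted p = 0.364) and the EGF-like growth factor gene Hbegf 1.33 (adjusted p = 0.525). A second Slc20a1 probe, above background on all 8 arrays, had -0.013, with 0.048 on slide 1 and -0.074 on slide 2.

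Immediate-early transcription factor genes, which answer receptor signals within minutes, went in both directions after 4 h. Fos, a subunit of the factor AP-1, had -0.65 and 1.94 with Cxcl12, against -2.50 and -0.13 without (difference 1.96, SE 0.60, limma adjusted p = 0.492). The slides differed by more than the treatment. Egr2, a zinc finger factor, had 0.91 and 4.11 with Cxcl12, against -0.69 and -0.51 without (difference 3.11, SE 0.92, adjusted p = 0.458), so most of the difference came from slide 2. Fosl1 had 1.70, with 0.70 on slide 1 and 2.69 on slide 2. Ier3, a stress and survival gene, had the opposite sign, with 0.88 and 1.16 with Cxcl12, against 2.73 and 2.84 without (difference -1.77, adjusted p = 0.123). Of 20 measured members 0 passed, 10 had positive and 10 negative differences, and the median was -0.39 on slide 1 and 0.34 on slide 2.

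The phosphatases and Sprouty proteins that shut off MAP kinases are themselves induced by that pathway. Dusp2, a nuclear phosphatase of ERK, had 1.87 and 1.84 with Cxcl12, against -0.14 and 0.28 without (difference 1.79, SE 0.28, adjusted p = 0.125). Its second probe had a difference of 1.72, and the 2 sides did not overlap in the probe used. Dusp4 had 2.31 and 1.07 with Cxcl12, against 1.72 and -1.33 without (difference 1.5, adjusted p = 0.353). The cytoplasmic ERK phosphatase gene Dusp6 had 0.92, with 0.29 on slide 1 and 1.55 on slide 2, and Spred2, an inhibitor of Ras signalling, had 0.89. Of 14 measured members 0 passed. On both slides 10 were higher, against 27.7% of all features, and 3 were lower, against 31.6%. The lowest member had -0.77. The median was 0.27 (0.10 on slide 1, 0.42 on slide 2).

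Myc, a growth-promoting transcription factor, had 3.97 and 3.68 with Cxcl12, against 3.15 and 2.0 without (difference 1.25, SE 0.24, limma adjusted p = 0.211). Its 2 other probes had differences of 1.16 and 1.22. Mxd1, which opposes Myc at their shared partner, had -1.1, while Mxd3 had 0.73 (0.30 on slide 1, 1.16 on slide 2). Of 11 measured Myc and Max network genes 0 passed, 5 had a positive and 6 a negative difference, and the median was -0.13. Of 35 genes of ribosome biogenesis and other known Myc targets, such as Cad, Odc1 and Ldha, 0 passed. The difference was positive for 27 and 19 were higher on both slides (47.9% and 27.7% of all features). Their median was 0.18 (0.32 on slide 1, 0.07 on slide 2). The largest was Tsr1, a factor of small ribosomal subunit assembly, at 1.1. Of 31 DNA replication and G1/S genes 0 passed, 26 had a positive difference (47.9% of all features) and the median was 0.19. With normexp as first planned the medians of the ribosome and G1/S lists were -0.43 and -0.51, and without its 4 spots 0.19 and 0.22. Ccne1, cyclin E1, which starts DNA replication, had 4.36 and 4.33 with Cxcl12, against 3.62 and 2.71 without (difference 1.18, adjusted p = 0.368). The cell cycle inhibitor gene Cdkn1a, which encodes p21, had 1.85 and 2.97 with Cxcl12, against 2.66 and 3.94 without (difference -0.89, adjusted p = 0.352), and Cdkn1b, which encodes p27, had -0.80. Mitosis genes lay nearer to 0, with a median of 0.08 over 31.

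Cholesterol and fatty acid synthesis genes, which the factors Srebf1 and Srebf2 switch on, had a median of 0.63 (0.51 on slide 1, 0.74 on slide 2), or -0.023 with normexp as first planned and 0.63 without its 4 spots. Of 29 measured members 0 passed, 26 had a positive difference and 23 were higher on both slides (47.9% and 27.7% of all features), with 17 at an unadjusted p under 0.05 (7.15% of all features). Mvk, mevalonate kinase, had -0.14 and 0.48 with Cxcl12, against -1.18 and -1.02 without (difference 1.27, SE 0.25, adjusted p = 0.220). Insig1, which holds back the Srebf factors when sterol is ample, had 1.19, with 0.54 on slide 1 and 1.83 on slide 2. Fdps, farnesyl diphosphate synthase, had 1.03 and the fatty acid synthase gene Fasn had 1.03. Srebf1 itself had -0.22 and Srebf2 0.52.

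**Figure D4:**
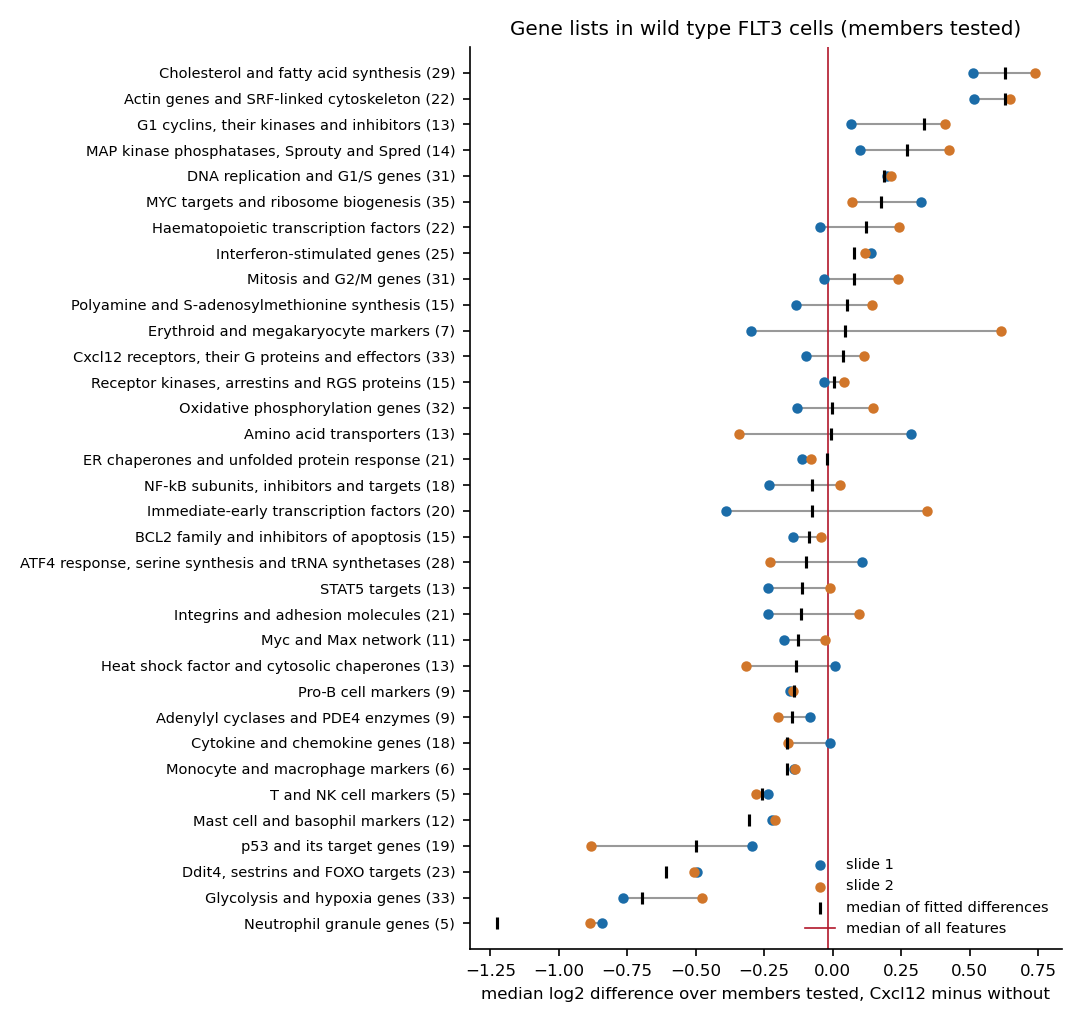
Median log2 difference with Cxcl12 minus without (x axis) over the measured members of 34 gene lists in wild type FLT3 cells, with slide 1 in blue, slide 2 in orange and the median of the fitted differences as a black tick. Numbers in brackets are members tested, the red line is the median of all features at -0.016, and cholesterol and fatty acid synthesis lies highest and neutrophil granule genes lowest.

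Genes of energy stress and of FOXO factors, which growth signals through AKT keep out of the nucleus, had more negative than positive differences, with 0 past the test. Ddit4, an inhibitor of the growth kinase mTORC1 that hypoxia and stress induce, had 4.87 and 4.00 with Cxcl12, against 6.22 and 6.97 without (difference -2.16, SE 0.32, limma adjusted p = 0.0945). All 4 arrays separated by side, with a larger gap on slide 2. Sesn2, a sestrin that also restrains mTORC1, had 4.20 and 2.60 with Cxcl12, against 5.47 and 4.95 without (difference -1.81, adjusted p = 0.175). Trib3, a pseudokinase of the ATF4 response, had 1.20 and 0.35 with Cxcl12, against 2.58 and 3.28 without (difference -2.16, adjusted p = 0.291). The FOXO target Ccng2 had 4.99 and 2.32 with Cxcl12, against 6.14 and 3.83 without (difference -1.33, adjusted p = 0.291). Of 23 measured members 0 passed, 17 had a negative difference and 16 were lower on both slides (52.1% and 31.6% of all features), with a median of -0.61. Sesn3, another sestrin, had 0.58, from 0.00 on slide 1 and 1.16 on slide 2.

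Of 19 p53 targets 0 passed and 14 had a negative difference (52.1% of all features), with a median of -0.50 (-0.29 on slide 1, -0.88 on slide 2). Some of them, such as Sesn2 and the death gene Bbc3, are also in the FOXO list. Bbc3, which encodes PUMA, had 4.05 and 2.99 with Cxcl12, against 4.70 and 4.52 without (difference -1.09). The kinase gene Plk3 had the opposite sign, at 1.55, with 0.46 on slide 1 and 2.63 on slide 2. The survival gene Birc5 had 0.08 and the kinase gene Rock1, which acts on myosin in cell movement, -0.23.

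Genes of the Cxcl12 pathway itself lay near 0. Of 33 measured receptors, G proteins and effectors 0 passed, 17 had a positive and 16 a negative difference, and the median was 0.04. The exceptions were Gng2, a G protein gamma subunit, with -0.15 and -2.0 with Cxcl12, against 1.0 and -0.89 without (difference -1.13, SE 0.27, adjusted p = 0.3), and Pik3r5, the regulatory subunit of the phosphoinositide 3-kinase that beta-gamma subunits switch on, at 0.70 (adjusted p = 0.657). Of 15 receptor kinases, arrestins and RGS proteins, which end G protein signals, 0 passed and the median was 0.0036. Adcy7, an adenylyl cyclase, had 5.51 and 4.45 with Cxcl12, against 4.23 and 3.47 without (difference 1.13, adjusted p = 0.226), in a list of 9 with a median of -0.15.

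The NF-kB list lay near 0 and held a few negative differences. Tnfaip3, which encodes the deubiquitinase A20, had -0.13 and -1.55 with Cxcl12, against 1.24 and -0.10 without (difference -1.41, SE 0.23, adjusted p = 0.135). Nfkbia, the inhibitor of NF-kB alpha, had 3.24 and 3.57 with Cxcl12, against 4.11 and 4.84 without (difference -1.08, adjusted p = 0.266). The cytokine gene Ltb had -1.14, and the subunit gene Relb had 0.80. Of 18 members 0 passed, and the median was -0.08. Of 13 STAT5 targets 0 passed, 5 had a positive and 8 a negative difference (47.9% and 52.1% of all features), and the median was -0.11. Socs2, which dampens cytokine signals, had 0.48, and the survival gene Bcl2l1 had 0.47. A second Socs2 probe, above background on all 8 arrays, had -0.23 (0.55 on slide 1, -1.01 on slide 2). Other Bcl2l1 probes, above background on 6 of the 8 arrays, were higher on slide 1 and lower on slide 2. Cish, a feedback inhibitor of cytokine receptors, had 0.93 and -0.41 with Cxcl12, against 1.90 and 1.55 without (difference -1.47, adjusted p = 0.540).

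In the ATF4 and heat shock lists, Nupr1 was at least 3.82-fold (limma adjusted p = 0.368) and Hspa1a at least 3.28-fold lower (adjusted p = 0.433) by the bound above, since no array with Cxcl12 was above background. The levels without Cxcl12 were -4.21 on slide 1 and -1.75 on slide 2 for Nupr1, and -4.85 and -1.55 for Hspa1a. For both genes the difference was larger on slide 2. Both lists as a whole lay near 0, with medians of -0.10 and -0.13.

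Markers of other blood cells were measured as well. Of 12 neutrophil granule genes on the array 5 were tested and 0 passed. On both slides 4 were lower, against 31.6% of all features (median -1.23). Mpo, myeloperoxidase, had 2.0 and -0.23 with Cxcl12, against 2.93 and 2.88 without (difference -2.02, SE 1.18, adjusted p = 0.795). The protease gene Prtn3 had -1.23 (adjusted p = 0.353), and S100a9 was at least 1.91-fold lower (adjusted p = 0.569). The sign of the list's median turned, relative to all features, under normexp as first planned, to 0.11. Elane, Camp, Ltf, Lcn2 and S100a8 were above background on none of the 4 arrays. The log2 of the summed intensity of the granule list was 5.45 and 4.84 with Cxcl12, against 6.26 and 5.73 without. Most of that sum is the probe of 1 member, Ctsg, with 5.30 and 4.78 with Cxcl12, against 6.10 and 5.49 without. The Ctsg difference was -0.75 (limma adjusted p = 0.903). Of 12 mast cell and basophil markers 0 passed, 3 had a positive and 9 a negative difference (47.9% and 52.1% of all features). Their median was -0.30. They ran from the protease gene Mcpt8 at -1.29 to the protease gene Cma2 at 0.51. The summed level of that list was 8.35 and 7.69 with Cxcl12, against 8.5 and 8.02 without. Their part in the other differences was not tested. Medians of pro-B, monocyte and erythroid markers lay between -0.17 and 0.05, and that of 5 T and NK cell markers was -0.26. The erythroid list, which also holds megakaryocyte markers, had -0.30 on slide 1 and 0.61 on slide 2. Of its 7 tested members 6 had a positive difference (47.9% of all features).

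The same 9 genes were then set beside the FLT3/ITD cells, in which 0 features passed for Cxcl12 and 1450 (10.5%) had an unadjusted p under 0.05. All 9 differed in the same direction there on both slides, and in all 9 the difference in wild type FLT3 cells was the larger. Actc1 had 2.16 in wild type FLT3 cells and 1.29 in FLT3/ITD cells, and Slc2a3 had -1.98 and -1.17 in the same order. Rcor2 had -1.56 in wild type FLT3 cells and -0.25 in FLT3/ITD cells, and Fam162a had -1.51 and -0.19. The 9 were chosen for their size in wild type FLT3 cells, which favours the larger value there. The 2 comparisons share slides but no array. In the test of the difference between the responses 0 of 13865 features passed and 237 had an unadjusted p under 0.05 (1.71%). The 9 genes gave unadjusted p-values of 0.00083 for Fam162a and 0.0011 for Rcor2, and 6 of 9 were under 0.05, all at limma adjusted p = 1. The gap between the responses is therefore not shown for any of them.

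Id1, an inhibitor of helix-loop-helix factors, went opposite ways. It had 0.53 and -1.49 with Cxcl12, against 1.54 and -0.25 without, in wild type FLT3 cells, a difference of -1.13 (adjusted p = 0.368). In FLT3/ITD cells its difference was 1.3, with the same sign on both slides, and the test of the gap gave an unadjusted p of 0.00023 and limma adjusted p = 1. A second Id1 probe had -1.13 in wild type FLT3 cells. Among lists, glycolysis and hypoxia genes had medians of -0.70 in wild type FLT3 cells and -0.32 in FLT3/ITD cells. Of 33 members 25 lay farther from 0 in wild type FLT3 cells, against 6295 of all 13865 features. The FLT3/ITD median was -0.60 on slide 1 (N51) and -0.15 on slide 2 (N78), against 0.043 over all features. Cholesterol and fatty acid genes had 0.63 in wild type FLT3 cells and 0.57 in FLT3/ITD cells. In the same order actin and SRF-linked genes had 0.63 and 0.46, and FOXO-linked genes -0.61 and -0.60. No member of these lists passed the test of the difference between responses.

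**Figure D5:**
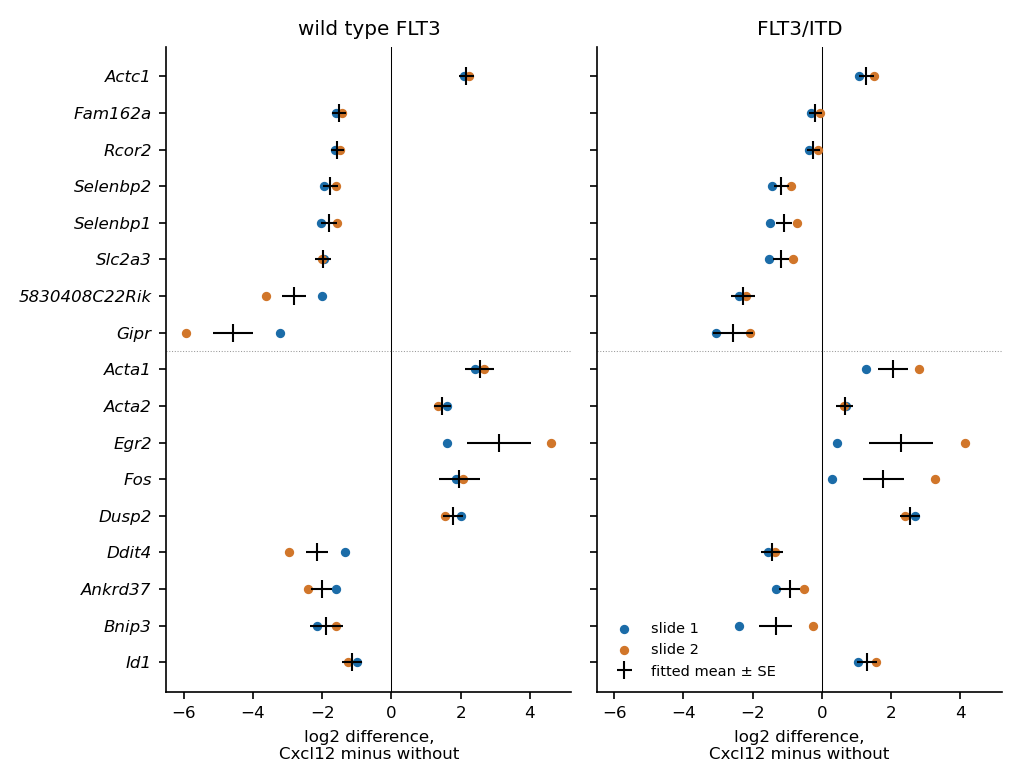
Log2 difference with Cxcl12 minus without (x axis) in wild type FLT3 cells on the left and FLT3/ITD cells on the right. Black ticks with bars are the fitted mean ± SE, coloured points are the slides, and genes above the dotted line are 8 of the 9 that passed in wild type FLT3 cells, of which all 8 keep their sign in FLT3/ITD cells, while Id1 does not.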

How the data were processed

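Total RNA of 8 Ba/F3 samples was labelled with Cy3 and read on Agilent mouse arrays, 1 array each. Agilent Feature Extraction made the deposited processed intensity, per the file headers, by background subtraction and detrending within each array, in release 9.5.1.1 on slide 1 and release 10.7.3.1 on slide 2. Here log2 was taken of the processed intensity and the 75th percentile of each array (in wild type FLT3 cells 1085 with Cxcl12 and 937 without on slide 1, and 488 with Cxcl12 and 367 without on slide 2) was subtracted. The authors' normalized intensity values, deposited as a matrix for each slide and whose processing is not given in the sources used here, served as an alternative.

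Control spots and between 93 and 203 outlier spots an array were dropped. Probes entered when any group had both its arrays well above background, and the brightest one over the 8 arrays represented its gene, which gave 13865 features. All 8 arrays were fitted with limma 3.58.1 (R 4.3.3) with 4 group means, the slide as block and an intensity trend in eBayes, leaving 3 residual degrees of freedom. Slide numbers come from the file headers, and arrays of a slide shared their deviations from the group means (correlations 0.73 to 0.878). The threshold was 0.05 on p-values adjusted by Benjamini and Hochberg over all features. The fit was also run on data simulated from its own model with independent noise. That checks the calculation and not whether these arrays meet the model's assumptions. The number of arrays limits the precision.

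The comparison, the 34 gene lists and the genes always named were chosen with earlier results of these data known. Named genes were up to 15 passing genes in each direction, open places filled by genes at least 2-fold different on both slides, the 4 members of each list with the largest differences, and Cxcr4, Ackr3, Cxcl12, Flt3, Cdkn1a, Rock1, Birc5, Acta1, Actc1, Dusp2, Myc, Slc2a3 and Ddit4. The text names a selection, and some genes, 1 of the 9 that passed included, are not reported here. Other list members, such as Actb, Slc2a1, Hk2, Aldoc and Hif1a, were chosen after their values were seen. Genes were named by accession (27198 probes), symbol (5590) or synonym (721), or by the file alone (962), and 6703 probes had no name. Positions of probes come from slide 2's headers (mm9). Promoter sequences are from RefSeq (GRCm38.p6).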

Additional observations from a re-analysis of the deposited data

How the results depend on the processing

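The 9 calls depended on the processing. The slide number pairs the arrays, and without the replicate block 0 features passed in wild type FLT3 cells (120 at an unadjusted p under 0.05). With the slide as a random block 18 passed and with the 4 wild type arrays alone 349, each with all 9 among them. The fit of these 4 arrays alone leaves only 1 residual degree of freedom per feature. The count was 0 with quantile normalization, no filter on dim probes, the mean of a gene's probes, no intensity trend, and normexp without the 4 spots whose local background far exceeded their signal, a setting chosen after seeing the data. The counts at an unadjusted p under 0.05 were 1039, 1397, 1030, 1011 and 1083 in that order. Normexp as planned passed 11, with 1 of the 9 among them, the authors' normalized values and the outlier spots kept each passed 9, and a stricter background filter 7. Leaving out 1 array gave between 0 and 3 calls. For the difference between responses the count was 6 under normexp as planned, between 0 and 1 with 1 array left out (the 1 without wild type FLT3 replicate 1), and 0 with no replicate block, the random block, quantile normalization, the authors' normalized values and normexp without the 4 spots; the other settings were not run for it.

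Of 68 genes, 11 changed sign somewhere. Under normexp as planned, which squeezed 1 array, Myl10 had 0.021, Cntnap2 0.68, 1700128A07Rik 0.56, Dhrs7c 0.72, Birc5 -0.65, Nupr1 0.28, Hspa1a 0.25 and S100a9 0.75. With 1 array left out, Cxcr4 ranged from -0.83 to 0.028, Rock1 from -0.45 to 0.0011, Birc5 from -0.067 to 0.23 and Mpo from -4.29 to 0.25. Relative to all features, the medians of the actin, glycolysis, FOXO, cholesterol, p53 and MAP kinase feedback lists kept their sign in all settings run, but their sizes moved, over 0.023 to 0.70, -1.11 to -0.46, -0.70 to -0.17, 0.10 to 0.72, -0.91 to -0.097 and 0.15 to 0.64 in that order. A dim probe limits Gipr, which normexp as planned put at -1.03. The cause of these changes was not tested.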
